A study of Mus musculus with 514 samples.

Results

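Single 8-cell mouse embryos lacking both Nr5a2 and Esrrb (mz_DKO) were compared with embryos lacking Esrrb alone (mz_EKO), which gives the effect of losing Nr5a2 when Esrrb is already missing. The comparison used the full-length libraries that the labels name 8C_mz_DKO (10 embryos) and 8C_mz_EKO (10 embryos), 20 of the 514 samples of the series. In the knockout labels the prefix mz marks a gene missing from the egg as well as from the embryo's own genome. For reference the same stage held 10 embryos lacking Nr5a2 alone (mz_NrKO) and 21 heterozygous for both genes (mz_DHet). The labels give neither the Nr5a2 alleles that the mz_EKO embryos carry, nor the promoter that drives any deletion in the egg, nor the mothers. An mz_DKO and an mz_EKO embryo come from mothers of different genotype, so an effect of the mother and an effect of the embryo's genotype cannot be told apart. Some embryos of a group may be littermates, and p-values measure the spread between embryos. Of the mz_DKO and of the mz_EKO embryos 1 was collected on 23 February 2022 and 9 on 8 March 2022. For mz_NrKO embryos these numbers were 1 and 6, with 3 more collected on 15 July 2022. For mz_DHet embryos they were 2 and 15, with 4 more collected on 15 July 2022.

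Nr5a2 and Esrrb are orphan nuclear receptors, transcription factors that bind DNA as monomers at closely related sites. Both are expressed in the preimplantation mouse embryo and in embryonic stem cells, where they help to sustain genes such as Pou5f1 and Nanog. At the 8-cell stage the blastomeres compact and polarise, and the genes of the first lineages, trophectoderm and inner cell mass, are switched on in the outer and inner cells that follow.

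Values are TPM, a transcript abundance corrected for length and scaled to a fixed sum in each library. Between 11914 and 13166 genes exceeded 1 TPM in an mz_EKO embryo and between 12536 and 14039 in an mz_DKO embryo. No pair of the 20 libraries was closer than a Pearson r of 0.906 across genes on the log2 scale. TPM keep no read counts, so the depth is unknown. The embryos of 23 February stood apart from the rest of their groups most often, being the extreme value in 12 of 40 such gene and group pairs in mz_DKO and in 11 in mz_EKO. Fold changes are of TPM + 1, which understates those of genes near 1 TPM, and in whole embryos fewer cells of a type and less RNA per cell cannot be told apart. Y chromosome genes summed to over 5 TPM in 5 of 10 embryos of each group.

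The targeted genes were read first. Nr5a2 (chr1:136842571-136960448 in mm10, minus strand) ranged from 389 to 816 TPM in mz_EKO embryos, with a median of 641, and from 509 to 1050 TPM in mz_DKO embryos, with a median of 790. The ranges overlap, and the change was 0.38 ± 0.19 (log2 fold change of TPM + 1 ± standard error, limma adjusted p = 0.135). A TPM value sums over the whole gene, and the labels do not name the deleted part, so the Nr5a2 value checks no label. Esrrb (chr12:86361117-86521628, plus strand) had medians of 20.3 TPM in mz_EKO and 26.6 TPM in mz_DKO embryos, against 48.7 TPM in mz_DHet embryos. It was the only gene that passed between mz_EKO and mz_DHet embryos (-1.56 ± 0.24, limma adjusted p = 0.000277) out of 10876 tested (0.00919%). An unadjusted limma p under 0.05 was found for 257 genes, where 544 are expected by chance. Between mz_DKO and mz_EKO embryos Esrrb missed the threshold (0.60 ± 0.27, limma adjusted p = 0.0874).

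Loss of Nr5a2 on top of Esrrb was followed by differences in 30.2% of the genes tested. Of 10876 genes that reached 5 TPM in 10 or more of the stage's 51 embryos, 1827 (16.8%) were higher and 1457 (13.4%) lower in mz_DKO embryos at a limma adjusted p under 0.05. At least 2-fold changes made up 1168 of the rises (10.7% of genes tested) and 872 of the falls (8.02%). For 186 genes every mz_DKO embryo lay above every mz_EKO embryo (1.71%), and for 198 every one lay below (1.82%), 3.53% together. The median log2 fold change over all genes tested was 0.05.

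**Figure D1:**
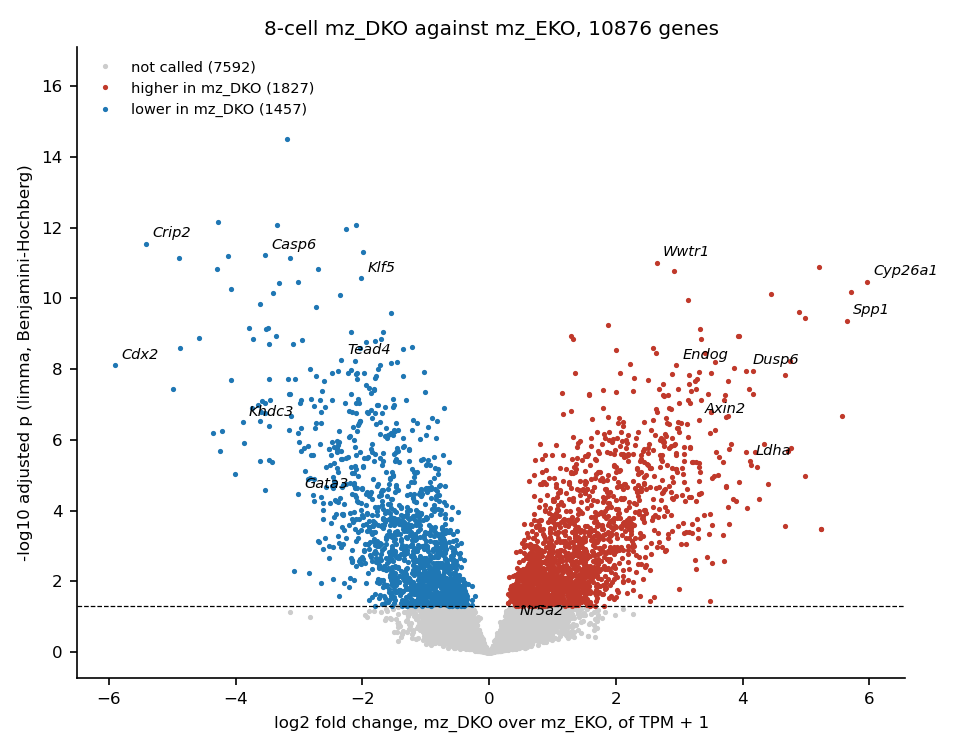
Each point is 1 of 10876 genes, with the log2 fold change (mz_DKO over mz_EKO, of TPM + 1) on the horizontal axis and the -log10 adjusted p on the vertical axis; the dashed line marks an adjusted p of 0.05. The 1827 higher genes (red) and 1457 lower genes (blue) spread to both sides over a similar range, and the position of Cyp26a1, listed at 0 in every mz_EKO embryo, is set by the pseudocount.

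The largest falls included regulators and enzymes that mz_EKO embryos expressed and mz_DKO embryos nearly or wholly lacked. Cdx2 (chr5:147300805-147307270), the homeobox factor of the trophectoderm, ranged from 50.5 to 294 TPM in mz_EKO embryos (median 101) and from 0 to 5.48 TPM in mz_DKO embryos (median 0.214). The groups stood far apart, and the change was -5.91 ± 0.71 (limma adjusted p = 7.86e-09). Crip2, a LIM domain protein (chr12:113140236-113145506), ranged from 290 to 1018 TPM in mz_EKO embryos (median 465) and from 5.14 to 29.4 TPM in mz_DKO embryos (median 11.3). Its change was -5.42 ± 0.48 (limma adjusted p = 2.81e-12), again with every mz_DKO embryo below every mz_EKO embryo. Ass1, argininosuccinate synthase, went from a median of 123 TPM to 3.56 TPM (-5.00 ± 0.65). Steap3, a metalloreductase of iron uptake, went from 93.3 to 3.68 TPM (-4.58 ± 0.51), and Fstl3, a secreted activin antagonist, from 118 to 5.75 TPM (-4.30 ± 0.41). Tnfsf13b, a cytokine of the TNF family, had 7.04 to 89.0 TPM in mz_EKO embryos and was listed at 0 in all 10 mz_DKO embryos (limma adjusted p = 7.31e-12). The 14 largest falls among the genes that the naming rule allows also held Ptges, Slc25a41, Rpph1, Plk5, Tinagl1, S1pr2, Serpinb9b and Khdc3, with log2 fold changes from -3.89 to -4.36. In all 14 the 2 groups did not overlap, against 1.82% of all genes tested. The 14 were picked by the size of the fall in these same embryos, so this is no separate evidence.

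The largest rises were mostly of genes that mz_EKO embryos barely expressed. Cyp26a1 (chr19:37697798-37701536), which degrades retinoic acid, was listed at 0 in all 10 mz_EKO embryos and ranged from 12.1 to 283 TPM in mz_DKO embryos, with a median of 62.7 (limma adjusted p = 3.36e-11). Spp1, the secreted glycoprotein osteopontin, ranged from 0 to 5.18 TPM in mz_EKO embryos (median 0.742) and from 29.9 to 290 TPM in mz_DKO embryos (median 104), a change of 5.64 ± 0.61. Efna3, a membrane-bound ephrin ligand, went from a median of 3.07 TPM to 173 TPM (5.21 ± 0.49, limma adjusted p = 1.31e-11) with no overlap. Gsc, the homeobox factor goosecoid, ranged from 2.75 to 45.1 TPM in mz_EKO embryos (median 11.2) and from 97.9 to 521 TPM in mz_DKO embryos (median 191), a change of 4.16 ± 0.51. Mycn, a MYC family factor, had medians of 0.692 and 27.3 TPM (4.17 ± 0.55). Ifitm3 and Ifitm1, membrane proteins of the interferon-induced family, had medians of 1.25 and 8.19 TPM in mz_EKO embryos and of 80.1 and 164 TPM in mz_DKO embryos. Rln3, Xdh, Car7, Elovl3, Plekhb2, Acp7 and Olfr376 complete the 14 largest rises, with log2 fold changes from 4.34 to 5.70. Of the 14, Xdh and Elovl3 were the 2 whose groups overlapped, through 1 low mz_DKO embryo each. Over all genes tested 1.71% were higher without overlap. The 14 were picked by the size of the rise, so their lack of overlap is no separate evidence.

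**Figure D2:**
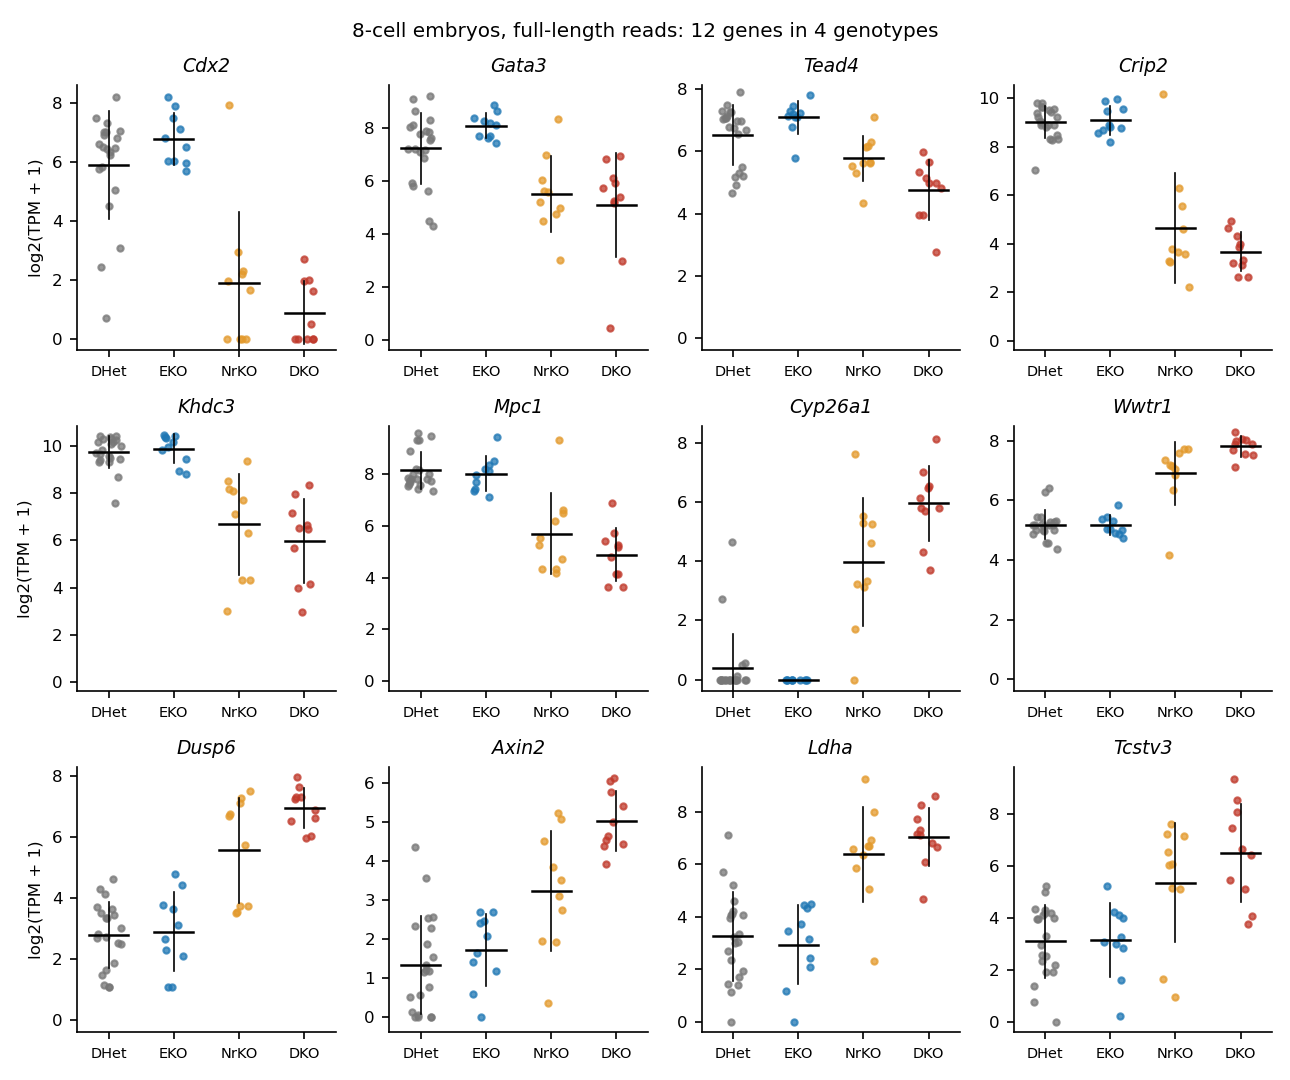
Each point is 1 embryo, with log2(TPM + 1) on the vertical axis and the 4 genotypes of the 8-cell stage on the horizontal axis (21 mz_DHet embryos, 10 embryos in every other genotype); horizontal lines are means and vertical lines 1 SD. In Cdx2, Crip2, Khdc3, Cyp26a1, Wwtr1 and Dusp6 no mz_DKO embryo reaches the mz_EKO range.

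Most tested genes of the trophectoderm list were lower in mz_DKO embryos. Of 24 listed factors and keratins 17 were tested, of which 9 were lower and 3 higher, and the median log2 fold change was -1.36 against 0.05 over all genes. Of the 17, 70.6% were called, against 30.2% of all genes tested (13.4% lower and 16.8% higher). Beside Cdx2 the lower genes were Gata3, Eomes, Tead4, Tfap2c, Hand1, Dab2, Krt7 and Krt18. Gata3, a zinc finger factor of the lineage, ranged from 173 to 463 TPM in mz_EKO embryos (median 285) and from 0.379 to 121 TPM in mz_DKO embryos (median 46.5), with no overlap (-3.01 ± 0.56). Tfap2c, which acts upstream of Cdx2 and polarity genes, had a narrow range of 112 to 180 TPM in mz_EKO embryos and 33.2 to 78.7 TPM in mz_DKO embryos (-1.36 ± 0.21, limma adjusted p = 1.61e-06). Tead4, the DNA-binding partner of the Hippo pathway effectors, went from a median of 143 TPM (range 54.1 to 226) to 30.7 TPM (range 5.82 to 62.0), a change of -2.33 ± 0.28. The Tead4 ranges overlap only through the mz_EKO embryo of 23 February, at 54.1 TPM. Krt18 fell (-2.03 ± 0.54), while its keratin partner Krt8 did not pass the test (-0.61 ± 0.44, limma adjusted p = 0.315). The rises were Lgals3 (galectin-3, 1.97 ± 0.33), Krt19 and Sbno1.

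Of 36 tested polarity and Hippo genes (44 listed), 11 were lower, 4 higher and 21 passed in neither direction, with a median of -0.25. The called share was 41.7%, against 30.2% of all genes. The 4 rises were Wwtr1, Ezr, Rdx and Mob1b. Wwtr1 (chr3:57455649-57575910), which encodes the Hippo effector TAZ, ranged from 25.7 to 57.1 TPM in mz_EKO embryos (median 32.2) and from 137 to 315 TPM in mz_DKO embryos (median 238). Every mz_DKO embryo was above the mz_EKO range (2.64 ± 0.25, limma adjusted p = 9.71e-12), whereas Yap1, its paralog, was at 0.27 ± 0.25 and did not pass. Pard6b, the PAR6 subunit of the apical polarity complex, went from a median of 29.5 TPM to 7.69 TPM (-2.22 ± 0.33), and Vgll4, a TEAD cofactor that opposes the effectors, from 48.3 to 7.62 TPM (-2.74 ± 0.39).

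Among 24 tested junction and compaction genes (30 listed) 8 fell, 1 rose (Jup, plakoglobin) and 15 passed in neither direction, with a median of -0.40. The called share was 37.5%, against 30.2% of all genes. Nectin2, an adhesion molecule of adherens junctions, ranged from 45.1 to 190 TPM in mz_EKO and from 1.79 to 30.3 TPM in mz_DKO embryos (-2.75 ± 0.40). Cldn4, a tight junction claudin, went from a median of 612 TPM to 107 TPM (-2.52 ± 0.40), and Cgn, the tight junction protein cingulin, from 45.2 to 12.6 TPM (-1.55 ± 0.23). For Nectin2 and Cldn4 the groups did not overlap. Cdh1, the E-cadherin of compaction, was at -0.69 ± 0.31 and missed the threshold (limma adjusted p = 0.083). The aquaporins of the cavity fluid list diverged. Aqp3 went from a median of 524 TPM to 59.5 TPM (-3.03 ± 0.45), Aqp11 from 13.4 to 104 TPM (2.90 ± 0.55) and Aqp9 from 83.0 to 160 TPM (0.85 ± 0.19). In all, 4 of 9 tested fluid transport genes rose and 2 fell, 66.7% called against 30.2% of all genes. The other faller was the glucose carrier Slc2a1 (medians of 4.63 and 0.244 TPM, limma adjusted p = 0.00209).

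**Figure D3:**
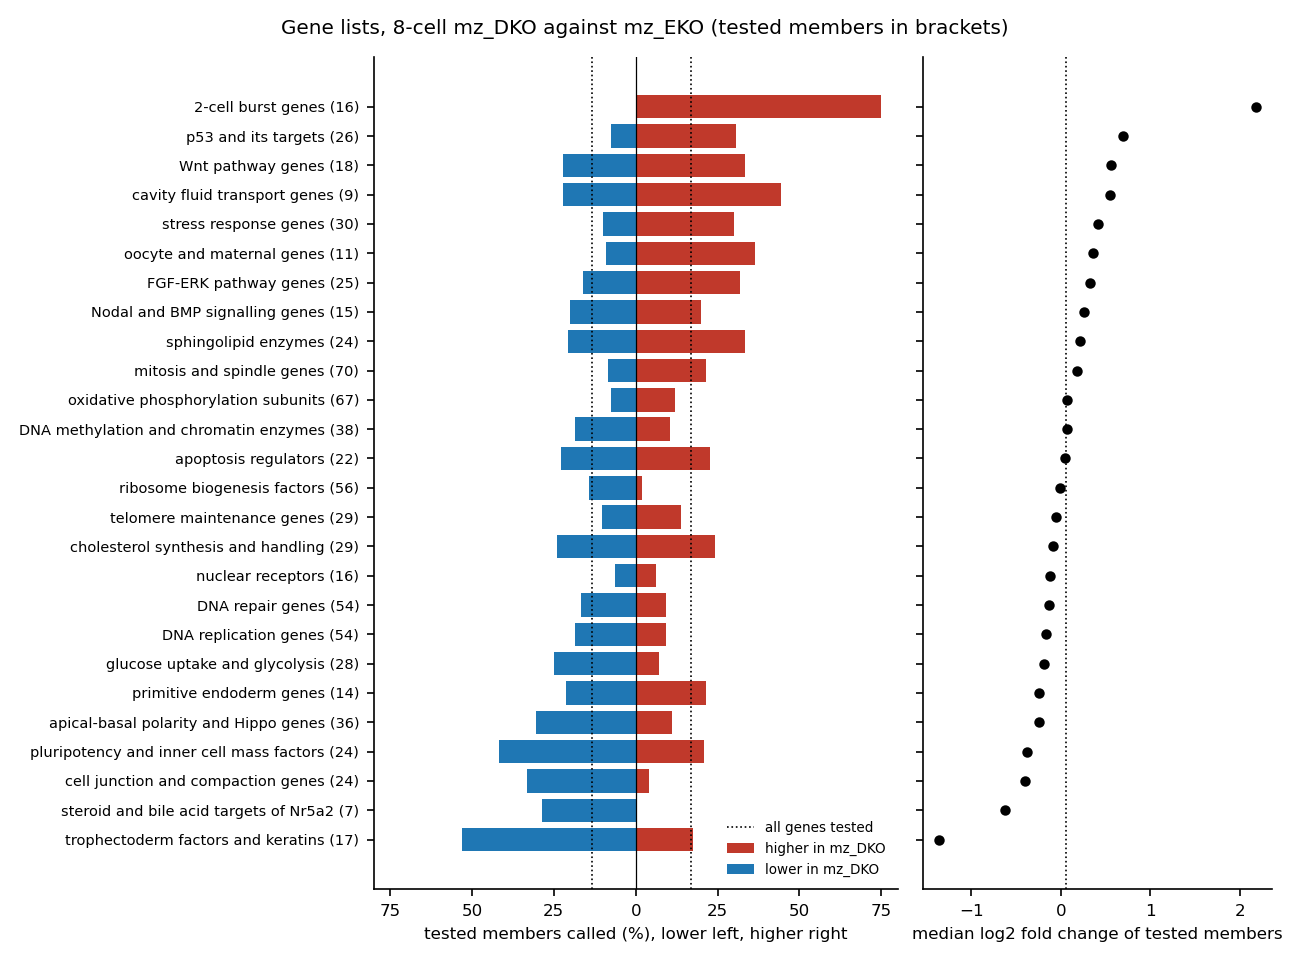
Left, the percentage of each list's tested members that were higher (red, to the right) or lower (blue, to the left) in mz_DKO embryos; right, the median log2 fold change of the tested members, with dotted lines at the values of all 10876 genes (16.8% higher, 13.4% lower, median 0.05). Lists with at least 7 tested members are drawn, with the lowest median in trophectoderm factors (-1.36); members of the 2-cell list that are low in mz_EKO embryos passed the filter through embryos where they were high, which sets their place at the other end.

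Pluripotency factors split. Of 24 tested (28 listed) 10 were lower and 5 higher, with a median of -0.38, and 62.5% were called against 30.2% of all genes. Klf5, a Krüppel-like factor active in both early lineages, ranged from 309 to 753 TPM in mz_EKO embryos (median 492) and from 85.4 to 180 TPM in mz_DKO embryos (median 118), with no overlap (-2.02 ± 0.20, limma adjusted p = 2.64e-11). Klf4 went from a median of 60.4 TPM to 15.3 TPM (-1.94 ± 0.31), Tfcp2l1, another factor of the naive network, from 77.3 to 25.0 TPM (-1.43 ± 0.26), and Dppa5a, an RNA-binding pluripotency marker, from 1394 to 503 TPM (-1.45 ± 0.17). For Dppa5a the mz_DKO embryo of 23 February, at 1712 TPM, lay above the mz_EKO median. Pou5f1, which encodes OCT4, showed a smaller fall, from a median of 1971 TPM to 1388 TPM (-0.59 ± 0.12, limma adjusted p = 7.88e-05). Nanog was low in both groups, with medians of 14.6 and 6.15 TPM (-1.47 ± 0.50). The 5 rises were Prdm14, Klf17, Tet1, Klf2 and Dppa4.

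Primitive endoderm genes were called in both directions, with 3 of 14 tested higher and 3 lower (24 listed, median -0.24). That is 42.9% called, against 30.2% of all genes. Members low in a group, such as Sox17 and Col4a1, passed the filter through embryos where they were high, so these counts are no measure of the list. Pdgfra, a receptor tyrosine kinase of that lineage, went from a median of 5.01 TPM to 32.4 TPM (2.46 ± 0.49). Gata4 also rose (1.70 ± 0.49), as did Sox17, from a median of 0 to 6.98 TPM with 1 or more mz_DKO embryos still at 0. Gata6 did not pass (-0.31 ± 0.24, limma adjusted p = 0.37). The falls were Dab2, an endocytic adaptor (median 191 to 14.9 TPM, -3.53 ± 0.65), Col4a1 (2.83 to 0 TPM, -1.75 ± 0.41) and Lrpap1, a chaperone of lipoprotein receptors (2470 to 1476 TPM, -0.81 ± 0.16).

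Signalling genes included several feedback inhibitors that rose. In the FGF-ERK list 8 of 25 tested genes rose and 4 fell (31 listed, median 0.33). Dusp6, a phosphatase of ERK that ERK activity itself induces, ranged from 1.12 to 26.7 TPM in mz_EKO embryos (median 6.49) and from 61.5 to 251 TPM in mz_DKO embryos (median 135), a change of 4.05 ± 0.50 (limma adjusted p = 1.1e-08). Spry2, another feedback inhibitor, had medians of 49.9 and 205 TPM (2.16 ± 0.33), and Il17rd of 2.05 and 12.0 TPM (1.80 ± 0.37). The kinase Map2k2 fell (-0.80 ± 0.14). In the Wnt list 6 of 18 tested genes rose and 4 fell (32 listed, median 0.55). Axin2, a negative regulator and direct target of the pathway, went from a median of 2.65 TPM to 27.1 TPM with no overlap (3.30 ± 0.47), Lgr4, an R-spondin receptor, from 1.45 to 7.79 TPM (1.99 ± 0.31) and Sfrp1, a secreted Wnt inhibitor, from 21.0 to 50.3 TPM (1.82 ± 0.41), whereas the ligand Wnt7b fell (-2.66 ± 0.50). Lgr4 and Il17rd stayed under 5 TPM in every mz_EKO embryo (at most 3.22 and 4.98 TPM). Such members passed the filter through embryos where they were high, so the counts and medians of both lists are no measure of them. Of tested members 48% were called in the FGF-ERK list and 55.6% in the Wnt list, against 30.2% of all genes. In the Nodal and BMP list 3 of 15 tested genes rose and 3 fell (30 listed), 40% called. The Nodal cofactor Tdgf1 fell (-2.59 ± 0.60), as did Smad7, an inhibitory SMAD (-1.50 ± 0.32), and Foxh1, a SMAD partner, rose (2.35 ± 0.40), as did the convertase Furin (1.35 ± 0.30). Of 16 tested nuclear receptors (41 listed), Rxra rose (0.98 ± 0.37, limma adjusted p = 0.0362) and Nr4a1 fell (-2.29 ± 0.50). The Rxra call was lost in 11 of 31 alternative settings, with adjusted p from 0.0149 to 0.0965.

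Genes of the 2-cell list are known for a burst of expression around genome activation. Of 34 listed, 30 were in the table and 16 passed the filter on low values. Some of these, such as Usp17ld, Tcstv1, Usp17lb and Arg2, averaged under 3 TPM in mz_EKO embryos and passed through embryos where they were high, so the 12 rises and 0 falls among the 16 are no measure of the list. Of the 10 members that averaged at least 10 TPM in mz_EKO embryos, a level chosen after the values were seen, 6 rose. Sp110 went from a mean of 618 TPM to 1762 TPM (limma adjusted p = 0.000112) and Zfp809 from 52.0 to 141 TPM (limma adjusted p = 0.000213), and Tmem92, Tcstv3, Tdpoz1 and Tdpoz4 were the others. Obox6 (1055 and 1512 TPM), Pramel7 (591 and 621 TPM), Pramel6 (331 and 311 TPM) and Tdpoz2 (20.8 and 25.7 TPM) did not pass. Many members are near-identical copies, so reads may be split between them. Tcstv3 ranged from 0.163 to 36.4 TPM in mz_EKO embryos (median 8.04) and from 12.6 to 651 TPM in mz_DKO embryos (median 92.0), a change of 3.33 ± 0.57 (limma adjusted p = 8.36e-06). Tcstv1 had medians of 0.810 and 12.0 TPM (2.83 ± 0.44), Usp17ld of 0 and 9.69 TPM (3.06 ± 0.53) and Tdpoz3 of 6.87 and 76.7 TPM (3.35 ± 0.62). For all 4 the ranges overlap. Each of the 10 mz_DKO embryos exceeded the mz_EKO mean, but the 4 were picked by adjusted p in these same embryos, so this is no separate evidence. Of the 47 oocyte and maternal genes 37 were in the table and 11 passed the filter, with 4 higher and 1 lower (45.5% called against 30.2% of all genes). Members low in mz_EKO embryos, such as Fbxw15 (at most 2.65 TPM there), passed through embryos where they were high. The counts are therefore no measure of this list either. Zp3, a zona pellucida protein of the egg coat, went from a median of 16.9 TPM to 86.5 TPM (2.39 ± 0.44), and Dppa3, a maternal factor that protects DNA methylation, from 1342 to 2502 TPM (0.84 ± 0.14). The faller was Khdc3, a subunit of the maternal subcortical complex, which ranged from 445 to 1431 TPM in mz_EKO embryos (median 1087) and from 6.87 to 322 TPM in mz_DKO embryos (median 90.4), a change of -3.89 ± 0.56 (limma adjusted p = 3.15e-07).

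Promoters were searched for the letters TCAAGGNCA, a form of the monomer site that both receptors can bind, on both strands of the 300 bases from 250 before to 50 after each RefSeq gene start (GRCm38.p6). The table matched 7750 of the genes tested. The motif was in 1.62% of all promoters and in 1.10% of those of genes tested. Promoters of genes that fell held it in 1.35%, those of genes that rose in 0.847% and those of genes that passed in neither direction in 1.11%. Among changes of at least 2-fold the shares were 1.85% for falls and 1.28% for rises, so few of the changed genes carry these letters near their start. The 250 bases before the start are shown for 4 genes with the motif, chosen after their values were seen: Khdc3 and Psap (saposin precursor, a lysosomal protein) and Dcaf4 (a ubiquitin ligase adaptor), which fell from means of 1012, 1578 and 295 TPM to means of 108, 421 and 92.8 TPM, and Klf17, a pluripotency factor that rose from a mean of 18.2 TPM to 67.5 TPM. Capitals mark the motif on either strand, and each sequence is written in the direction of the gene.
Khdc3, chr9:73102148-73102397, plus strand: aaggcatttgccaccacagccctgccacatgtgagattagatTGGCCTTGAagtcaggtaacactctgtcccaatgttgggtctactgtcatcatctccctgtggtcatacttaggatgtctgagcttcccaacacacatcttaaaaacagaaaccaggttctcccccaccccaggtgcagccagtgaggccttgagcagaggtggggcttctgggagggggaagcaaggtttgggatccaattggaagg
Psap, chr10:60277378-60277627, plus strand: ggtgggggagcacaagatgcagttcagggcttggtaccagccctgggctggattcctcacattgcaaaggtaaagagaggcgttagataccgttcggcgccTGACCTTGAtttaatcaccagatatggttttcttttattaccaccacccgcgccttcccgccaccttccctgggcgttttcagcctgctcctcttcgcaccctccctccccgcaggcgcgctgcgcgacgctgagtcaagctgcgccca
Dcaf4, chr12:83525799-83526048, plus strand: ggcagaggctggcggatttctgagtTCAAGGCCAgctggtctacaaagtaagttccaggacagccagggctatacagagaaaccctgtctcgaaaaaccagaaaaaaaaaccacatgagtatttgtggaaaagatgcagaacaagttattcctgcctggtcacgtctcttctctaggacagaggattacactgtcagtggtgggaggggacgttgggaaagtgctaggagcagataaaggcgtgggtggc
Klf17, chr4:117765667-117765916, minus strand: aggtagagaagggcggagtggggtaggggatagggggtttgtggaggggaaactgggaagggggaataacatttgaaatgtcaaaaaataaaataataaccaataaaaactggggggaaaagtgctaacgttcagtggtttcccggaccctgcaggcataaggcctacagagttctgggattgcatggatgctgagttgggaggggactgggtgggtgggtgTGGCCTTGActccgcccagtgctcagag
The motif starts 208 bases before the start of Khdc3, 149 before Psap, 225 before Dcaf4 and 28 before Klf17. It reads in the direction of the gene in Dcaf4 and on the opposite strand in the other 3.

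Cell cycle, repair and telomere lists were called at 24.1% to 30% of tested members, at or below the 30.2% of all genes. Of 70 tested mitosis and spindle genes (73 listed) 15 rose and 6 fell, with a median of 0.18. Cdk1, the mitotic kinase, ranged from 644 to 1172 TPM in mz_EKO embryos (median 940) and from 151 to 592 TPM in mz_DKO embryos (median 358), with no overlap (-1.51 ± 0.20, limma adjusted p = 7.12e-08). Its activating phosphatase Cdc25b fell too, from a median of 14.5 TPM to 2.24 TPM (-2.14 ± 0.38). The kinesin Kif2c, which corrects spindle attachments, rose from 19.5 to 78.6 TPM (2.00 ± 0.34), and the condensin subunit Ncapg from 12.4 to 34.1 TPM (1.24 ± 0.26). Of 54 replication genes 10 fell and 5 rose (median -0.17). Ccne1, cyclin E1, had medians of 780 and 315 TPM (-1.27 ± 0.20) and Rrm2, the ribonucleotide reductase subunit, of 644 and 226 TPM (-1.64 ± 0.22), while Cdk2, the cyclin E kinase, rose from 82.2 to 273 TPM (1.54 ± 0.25). Of 54 tested repair genes (58 listed) 9 fell and 5 rose (median -0.13), led by Parp1, a sensor of DNA breaks (349 to 136 TPM, -1.36 ± 0.21, no overlap). Among 29 tested telomere genes (32 listed) 4 rose and 3 fell. Smchd1, a chromatin protein of X inactivation, rose (1.58 ± 0.30) and Nhp2, a telomerase ribonucleoprotein subunit, fell within a narrow range (666 to 480 TPM, -0.50 ± 0.10).

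Of 38 tested chromatin enzymes (42 listed) 7 were lower and 4 higher (median 0.06), 28.9% called against 30.2% of all genes. Hdac1, a histone deacetylase, went from a median of 311 TPM to 143 TPM with no overlap (-1.22 ± 0.14, limma adjusted p = 2.32e-09), Jarid2, a Polycomb cofactor, from 198 to 66.8 TPM (-1.46 ± 0.27) and Kdm6b, an H3K27 demethylase, from 22.9 to 7.10 TPM (-1.59 ± 0.28). Kdm5b, an H3K4 demethylase, rose from 70.7 to 204 TPM (1.60 ± 0.25).

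Genes of the p53 list were more often higher than lower, with 8 of 26 tested up and 2 down (30 listed, median 0.69). The called share was 38.5%, against 30.2% of all genes (16.8% higher and 13.4% lower). Perp, an epithelial target of p53, went from a median of 140 TPM to 405 TPM (1.25 ± 0.26) and Pmaip1, which encodes the death protein NOXA, from 20.6 to 138 TPM (2.42 ± 0.55) with a wide mz_DKO range of 11.5 to 842 TPM. Tigar, a metabolic target, fell from 325 to 171 TPM (-0.94 ± 0.16). Cdkn1a, the cell cycle inhibitor that p53 induces, was at 0.08 ± 0.41 and did not pass. Apoptosis regulators were balanced, with 5 of 22 tested up and 5 down (30 listed), 45.5% called. Casp6, an executioner caspase, ranged from 109 to 232 TPM in mz_EKO embryos (median 164) and from 7.23 to 43.2 TPM in mz_DKO embryos (median 10.0), a change of -3.53 ± 0.32 (limma adjusted p = 6.1e-12). Bad (-2.03 ± 0.24) and Bok (-1.44 ± 0.31), both pro-apoptotic BCL2 relatives, fell, and Endog, a mitochondrial nuclease, rose (2.95 ± 0.36). In the stress list 9 of 30 tested genes rose and 3 fell (35 listed, median 0.42), 40% called. Members low in mz_EKO embryos, such as Chac1 (at most 6.01 TPM there), passed the filter largely through embryos where they were high. The counts are therefore no measure of the stress list. Chac1, a glutathione-degrading enzyme induced by ATF4, went from a median of 0.891 TPM to 27.9 TPM (3.94 ± 0.70) and Asns, asparagine synthetase, another ATF4 target, from 10.3 to 65.5 TPM (2.58 ± 0.51). Psat1, of serine synthesis (1913 to 803 TPM, -1.10 ± 0.17), and Xbp1, a factor of the unfolded protein response (17.3 to 6.00 TPM, -1.82 ± 0.40), fell.

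Of the metabolic lists, sphingolipid enzymes (54.2% called) and cholesterol genes (48.3%) lay above the 30.2% called among all genes, and oxidative phosphorylation subunits (19.4%) below it. Sphingolipid members low in a group, such as Degs2 (at most 2.79 TPM in mz_EKO embryos), passed the filter through embryos where they were high. The counts are therefore no measure of the sphingolipid list. Mpc1, a subunit of the mitochondrial pyruvate carrier, ranged from 139 to 697 TPM in mz_EKO embryos (median 265) and from 11.3 to 116 TPM in mz_DKO embryos (median 31.0), with no overlap (-3.14 ± 0.29, limma adjusted p = 7.31e-12). Its partner subunit Mpc2 was at -0.47 and did not pass. Ldha, the lactate dehydrogenase subunit, rose from a median of 8.97 TPM to 140 TPM, also with no overlap (4.11 ± 0.68, limma adjusted p = 3.96e-06). Among 28 tested genes of glucose uptake and glycolysis (34 listed) 7 fell and 2 rose (median -0.19). Of 67 oxidative phosphorylation subunits 8 rose and 5 fell (median 0.06), with Ndufv2 at 140 and 296 TPM (1.14 ± 0.15) and Ndufa8 at 56.3 and 24.0 TPM (-1.25 ± 0.23). Cholesterol genes divided into 7 higher and 7 lower of 29 tested (35 listed). Fdft1, squalene synthase, fell (196 to 53.5 TPM, -1.76 ± 0.24), and Soat1, which esterifies cholesterol, and the regulator Srebf2 rose by 1.38 ± 0.30 and 1.77 ± 0.38. Sphingolipid genes divided into 8 higher and 5 lower of 24 tested (30 listed). The ceramide synthases changed in opposite directions, Cers2 from a median of 171 TPM to 43.7 TPM (-1.95 ± 0.25) and Cers5 from 70.4 to 315 TPM (2.29 ± 0.29), both with no overlap. The receptor S1pr2 had 7.07 to 35.2 TPM in mz_EKO and at most 0.834 TPM in mz_DKO embryos. Of the 22 listed steroid and bile acid targets of Nr5a2 in other tissues 7 were tested and 2 called (28.6%), Hsd17b1 (-1.63 ± 0.38) and Fdx1 (-1.51 ± 0.43), both lower. Apoa1, the main protein of high-density lipoprotein, missed the threshold (1.39 ± 0.58, limma adjusted p = 0.065) but was called higher in UMI reads (1.34, limma adjusted p = 0.00898) and in 4 of 31 alternative settings, 8 March alone among them. Ribosome biogenesis factors were called in 9 of 56 tested cases (57 listed), 16.1% against 30.2% of all genes, with a median of -0.01. Of these 8 were falls, such as Polr1a, the largest RNA polymerase I subunit (-1.10 ± 0.32), where 13.4% of all genes were lower. In UMI reads 5 of 55 tested factors were higher and 7 lower.

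Markers of cells that could adhere to an embryo were low, and some of them moved with the genotype. Summed cumulus and granulosa markers (20 genes) spanned 38.6 to 87.7 TPM in mz_EKO and 36.6 to 137 TPM in mz_DKO embryos, and neither of the 2 tested members, Amhr2 and Serpine2, passed. Summed sperm markers (12 genes) spanned 13.4 to 53.2 TPM and 11.9 to 55.0 TPM, nearly all of it Odf2. Summed blood markers (14 genes) spanned 7.55 to 31.6 TPM in mz_EKO and 41.3 to 213 TPM in mz_DKO embryos. By the means of the markers, most of the mz_DKO sum was Cd74, the invariant chain, with medians of 7.98 and 65.9 TPM (2.76 ± 0.57). In mz_DKO replicate 1, however, Cd74 was at 3.94 TPM, a small part of the sum. Hba-a2 averaged 0.391 TPM in mz_EKO and 7.52 TPM in mz_DKO embryos, and Hba-a1 0.354 and 2.26 TPM. Lyz2, Cd68, Alas2 and Tyrobp also had higher means in mz_DKO embryos, and Csf1r and Cd52 lower ones. In all mz_DKO embryos 6 of the 14 blood markers were at 0. Summed oviduct markers (9 genes) spanned 19.5 to 36.7 TPM and 35.3 to 159 TPM, mostly Tuba1a, an alpha-tubulin (2.09 ± 0.45). The part of such cells in the rises was not tested.

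The same loss of Nr5a2 could be read where Esrrb was not knocked out, in mz_NrKO against mz_DHet embryos, which share no library with the main comparison. There 3075 genes passed (28.3%), 1532 higher and 1543 lower. Both comparisons called 2147 genes, each with the same sign in both, which is 65.4% of the mz_DKO calls and 69.8% of the mz_NrKO calls. Of the 3075 genes called in mz_NrKO embryos 97.7% had the same sign in mz_DKO embryos, and across all genes tested the 2 effects had a Pearson r of 0.835 and a Spearman rho of 0.772, given as a description since genes are not independent replicates. The median ratio of the mz_DKO effect to the mz_NrKO effect, over genes called in mz_NrKO embryos, was 1.06. Trophectoderm factors had a median of -0.59 in mz_NrKO embryos and -1.36 in mz_DKO embryos, and stress genes -0.06 and 0.42. These list values are set side by side and the list differences were not tested. All these mz_NrKO calls, medians and ratios include the library labelled mz_NrKO replicate 1, which stood apart. This library, the only mz_NrKO embryo of 23 February, had Cdx2 at 243 TPM and Crip2 at 1158 TPM. In the other 9 these were at most 6.79 and 79.0 TPM. Its mean Pearson r was 0.802 to mz_EKO embryos and 0.706 to mz_DKO embryos. The part of this library in the smaller mz_NrKO list medians was not tested.

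The difference of the 2 effects passed for 4 genes (0.0368%), all with a larger fall where Esrrb was missing too. An unadjusted limma p under 0.05 was found for 709 genes, where 544 are expected by chance. Slc25a41, a mitochondrial carrier, had medians of 39.0 TPM in mz_DHet, 9.27 in mz_NrKO, 31.8 in mz_EKO and 0.418 in mz_DKO embryos (difference of log2 effects -2.53 ± 0.47, limma adjusted p = 0.0137). Aacs, acetoacetyl-CoA synthetase, had medians of 75.3, 36.1, 78.0 and 15.3 TPM in the same order (-1.95 ± 0.38, limma adjusted p = 0.0137). Strada, a pseudokinase that activates LKB1, had 126, 46.9, 142 and 32.1 TPM (-1.22 ± 0.24, limma adjusted p = 0.0137). Tead4 had 124, 49.3, 143 and 30.7 TPM (-1.74 ± 0.37, limma adjusted p = 0.0444). In each of the 4 genes the mz_DKO median was the lowest of the 4 genotypes. Without mz_NrKO replicate 1 the count was 3, and Tead4 no longer passed (limma adjusted p = 0.131). Without the date factor no gene passed, and on 8 March alone 2 genes passed, neither of them among these 4, so none of the 4 calls held in either setting. Spp1 came next (3.63, limma adjusted p = 0.0751) and did not pass. In UMI reads (unique molecular identifiers, 5' ends of transcripts) no gene passed this test with limma (0%). There 536 genes had an unadjusted p under 0.05, where 448 are expected by chance.

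**Figure D4:**
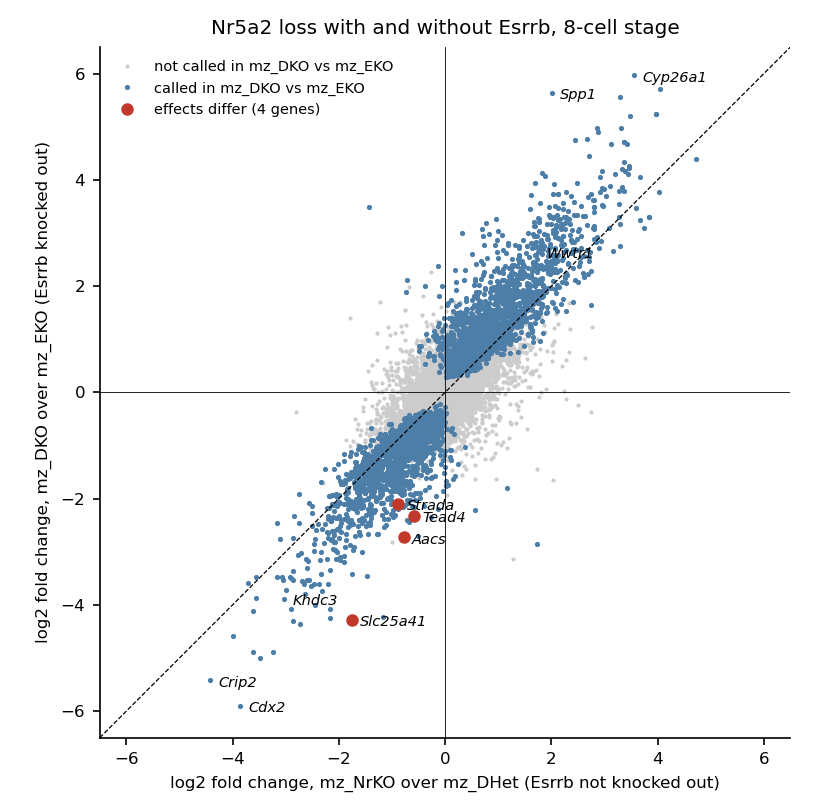
Each point is 1 gene, with the log2 fold change of mz_NrKO over mz_DHet on the horizontal axis and of mz_DKO over mz_EKO on the vertical axis; the dashed line marks equal effects. Genes called in mz_DKO against mz_EKO (blue) mostly have the same sign on both axes (Pearson r 0.835 over all genes), and the 4 genes whose effects differed (red) lie below it.

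Genes near Nr5a2 were called about as often as genes elsewhere. Within 10 Mb of Nr5a2 on chromosome 1, 16 of 57 tested genes passed (28.1%), 10 higher and 6 lower, against 30.4% of genes elsewhere. The smallest adjusted p there belonged to Glrx2, a mitochondrial glutaredoxin (median 110 to 411 TPM, 1.88 ± 0.20, no overlap), and Kdm5b. Cacna1s, a calcium channel subunit, had medians of 0.794 and 36.4 TPM (3.62 ± 0.59), and Cdc73, a subunit of the PAF1 complex, of 11.0 and 37.3 TPM (1.52 ± 0.27). Rab29 (-1.64 ± 0.35) and Pfkfb2 (-1.51 ± 0.35) fell.

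UMI reads gave a second readout of 9 mz_DKO and 9 mz_EKO embryos. Of 8960 genes tested in them 1563 were higher (17.4%) and 1288 lower (14.4%). Of the full-length calls 2640 were also tested in UMI reads, of which 98.3% had the same sign and 76.7% were called with it. In UMI reads Cdx2 had means of 98.4 ± 61.4 TPM in mz_EKO and 1.42 ± 1.56 TPM in mz_DKO embryos (SD, n = 9 each), Wwtr1 of 23.7 ± 5.44 and 147 ± 32.2 TPM, and Khdc3 of 1372 ± 463 and 152 ± 123 TPM. These are the same embryos, so the UMI values check the measurement and add no animals. Esrrb, uncalled in full-length reads, was called higher in mz_DKO embryos in UMI reads (0.65, limma adjusted p = 0.0483).

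Directions were also read within dates. On 8 March alone (9 against 9 embryos) all 3284 called genes kept their sign, and 1789 higher and 1497 lower calls were made over the same genes. The single pair of 23 February had the same sign for 88.1% of the called genes. The calls were made from these same embryos, most of them of 8 March, so a shared sign was largely fixed in advance and is no separate evidence.

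Fewer genes were called at earlier stages, in fits with fewer or unevenly dated embryos. At the 4-cell stage (10 mz_DKO and 4 mz_EKO embryos) 91 of 13044 genes passed (0.698%), 27 higher and 64 lower, and at the late 2-cell stage (6 and 10 embryos) 25 of 14147 (0.177%), 12 higher (0.0848%) and 13 lower (0.0919%), or 8 and 15 with median-of-ratios scaling. Of the 4-cell calls 78 were tested at the 8-cell stage, where 56 had the same sign and 43 were called with it. For the late 2-cell calls these numbers were 21, 14 and 6. Tead4 ranged from 73.8 to 295 TPM in 4-cell mz_EKO embryos and from 4.97 to 50.6 TPM in 4-cell mz_DKO embryos (-3.67 ± 0.53, limma adjusted p = 0.00108). Slc25a41 had medians of 56.7 and 1.06 TPM (-5.20 ± 0.81), Casp6 of 52.4 and 9.46 TPM (-3.15 ± 0.51) and Tdgf1 means of 37.0 and 2.01 TPM (-4.90 ± 0.85), each with the same direction as at the 8-cell stage. Crip2 and Gata3, both low at the 4-cell stage, did not pass there (0.63 ± 0.88 and -0.32 ± 0.81), nor did Wwtr1 (0.72 ± 0.44) or Dusp6 (2.49 ± 0.92, limma adjusted p = 0.252). The 4-cell dates were unbalanced, with 9 of 10 mz_DKO but 1 of 4 mz_EKO embryos collected on 17 June 2022, and the 4-cell count was 40, 53 and 156 without mz_EKO replicates 2, 3 and 4 in turn. The 3 stages were not tested against each other.

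**Figure D5:**
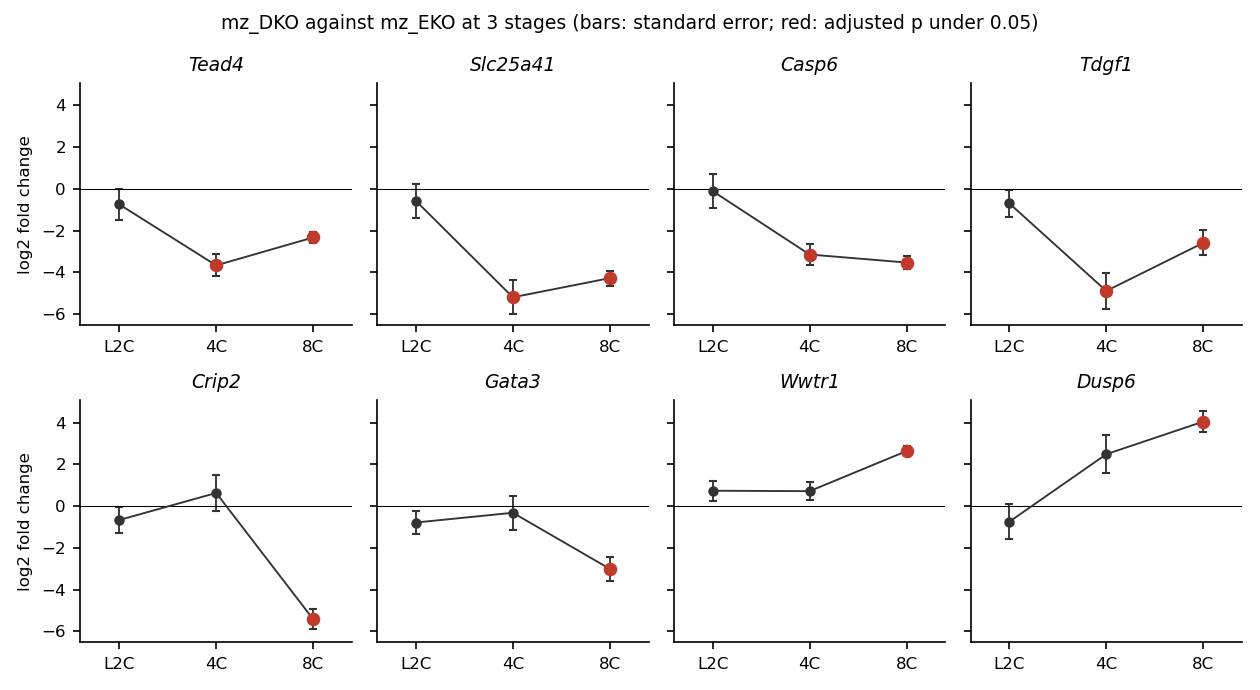
For 8 genes the log2 fold change of mz_DKO over mz_EKO (points, with bars of 1 standard error) is drawn by stage (L2C, late 2-cell embryos; then 4C and 8C), with red points at an adjusted p under 0.05. Tead4, Slc25a41, Casp6 and Tdgf1 pass at 4C and 8C, and Crip2, Gata3, Wwtr1 and Dusp6 at 8C alone of the 3 stages.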

How the data were processed

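Single embryos were sequenced as full-length polyadenylated RNA and as UMI-tagged 5' ends, with genotyping primers present during cDNA amplification, per the labels' protocols. The authors deposited TPM values for both kinds of read. The submitters' processing notes name cutadapt, STAR, RSEM and mm10, without versions or roles. There were 55168 named genes for full-length and 55247 for UMI reads, and 65 rows without a gene name were left out. No sample column was unmapped.

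Values were taken as log2(TPM + 1). Genes with at least 5 TPM in as many libraries as the smallest group holds (10 for full-length 8-cell, 5 for UMI, 4 at the 4-cell and 6 at the late 2-cell stage) were fitted with limma 3.58.1 in R 4.3.3 (mean-variance trend, group and collection date as factors, all genotypes of the stage together, which share 1 estimate of spread). Tests were two-sided, with Benjamini-Hochberg adjustment over all genes tested and a threshold of 0.05. The procedure was tested on simulated data. Coordinates are from GENCODE (mm10) and promoters from RefSeq (GRCm38.p6).

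The members and lists were chosen with earlier results of these data known. Named genes were the targeted genes, the 14 largest rises and 14 largest falls that passed the test and averaged 10 TPM or more in either group (no predicted genes, clones or pseudogenes), up to 4 members of each of 31 lists by adjusted p, up to 6 genes by the difference of effects and up to 6 called genes within 10 Mb of Nr5a2. Some genes under this rule are not reported here. Other genes named, lineage markers aside, were chosen after their values were seen. Alternatives were pseudocounts of 0.1 and 5, no filter or 10 TPM, median-of-ratios scaling, no date factor, 8 March alone, the 2 groups alone, a replicate block, no trend and replicates left out in turn (8-cell full-length libraries, and mz_EKO at the 4-cell stage), not all for every result. Leaving out mz_NrKO and mz_DHet libraries was added after seeing the data.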

Additional observations from a re-analysis of the deposited data

Results flagged for a closer look

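A closer look was warranted where 1 embryo lay far from the other 9 of its group, measured as its gap to the nearest one over the whole range of the group on the log2(TPM + 1) scale. Of 296 pairs of a named gene and a group 40 met this (13.5%), where chance alone gives about 1 in 20. The embryos of 23 February held most of them, 12 in mz_DKO and 11 in mz_EKO.

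In the mz_EKO embryo of 23 February (replicate 1) the lowest value of its group was Esrrb at 2.23 TPM, Tead4 at 54.1 TPM, Klf4 at 23.6 TPM, Cgn at 8.18 TPM, Psat1 at 748 TPM, Gnl3 at 179 TPM, Rarg at 34.8 TPM, Smad7 at 4.84 TPM, Spry2 at 1.43 TPM, Map2k2 at 159 TPM and Strada at 60.5 TPM. In the mz_DKO embryo of 23 February (replicate 1) the lowest value of its group was Esrrb at 4.98 TPM, Elovl3 at 1.46 TPM, Cgn at 3.33 TPM, Ccne1 at 101 TPM, Foxh1 at 7.25 TPM, Spry2 at 32.2 TPM, Map2k2 at 48.7 TPM, Hdac1 at 61.9 TPM, Cd74 at 3.94 TPM and Strada at 8.76 TPM. In the mz_DKO embryo of 23 February (replicate 1) the highest value of its group was Dppa5a at 1712 TPM and Ndufv2 at 523 TPM. Cgn, Spry2, Map2k2, Strada and Esrrb stood low in both of these embryos. Collection date was a factor in the model. All 3284 called genes kept their direction without these embryos, but the remaining embryos had given most of the values behind the calls.

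mz_DKO replicate 10 gave the lowest value for Xdh at 5.14 TPM and Cers2 at 15.2 TPM. mz_DKO replicate 10 gave the highest value for Scarb1 at 22.2 TPM. mz_EKO replicate 4 gave the lowest value for Vgll4 at 16.4 TPM. mz_EKO replicate 4 gave the highest value for Car7 at 2.70 TPM. mz_DKO replicate 3 gave the lowest value for Dab2 at 0.607 TPM. mz_DKO replicate 3 gave the highest value for Slc25a41 at 9.66 TPM. mz_DKO replicate 5 gave the highest value for Tinagl1 at 3.03 TPM, S1pr2 at 0.834 TPM, Gadd45b at 25.2 TPM and Hsd17b1 at 2.47 TPM. mz_DKO replicate 6 gave the highest value for Serpinb9b at 0.668 TPM. mz_EKO replicate 10 gave the lowest value for Lgals3 at 6.56 TPM and Foxh1 at 0 TPM. mz_DKO replicate 8 gave the lowest value for Cldn4 at 10.2 TPM and Xbp1 at 0 TPM. mz_EKO replicate 6 gave the lowest value for Aqp11 at 1.15 TPM.

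The effect of Nr5a2 loss differed between embryos without and with Esrrb by a limma test of the difference itself in 4 genes, by -1.95 for Aacs, -2.53 for Slc25a41, -1.22 for Strada and -1.74 for Tead4 on the log2 scale.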

How the results depend on the processing

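Counts of genes higher and lower in 8-cell mz_DKO embryos stayed within 1.5 times of 1827 and 1457 under every setting tried, from 1329 and 1088 without the date factor to 2174 higher without the filter and 1530 lower on 8 March alone, and no called gene changed direction. They were 1700 to 1818 and 1342 to 1515 when each replicate was left out, and 1629 and 1312 with a replicate block in a fit of the 2 groups alone (1683 and 1365 in that fit without it). Same-numbered embryos did not deviate together (r from -0.106 to 0.545, and 3 of 10 correlated best with their own number), so numbers were not taken as pairs. Of 133 called genes among the 150 named, 130 kept their call in every setting. Rxra lost it in 11, and Gnl3 and Xrcc1 without the date factor (limma adjusted p = 0.126 and 0.0934). The 4 genes whose Nr5a2 effect differed with Esrrb status became 0 without the date factor, 2 on 8 March alone and 3 to 6 when each replicate was left out. The 91 genes of the 4-cell stage became 37 without the filter, 247 without the date factor and 40 to 156 when each mz_EKO replicate was left out (40, 53 and 156 without replicates 2, 3 and 4); mz_DKO replicates were not left out there. The cause was not tested. The late 2-cell and UMI counts stayed within 1.5 times under the 4 settings tried (lower pseudocount, no filter, scaling, no date factor); no replicate was left out of them. Depth is unknown, so no detection limit can be given for genes listed at 0, and 2 collection dates with 1 embryo each per group on the earlier one limit any comparison within dates.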

Other observations

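A few further genes are given as values; they were chosen after their values were seen. Igf2r, the receptor that clears IGF2, had the smallest adjusted p of all genes tested. It ranged from 21.9 to 196 TPM in mz_EKO embryos (median 125) and from 6.36 to 15.4 TPM in mz_DKO embryos (median 11.7), with no overlap (-3.20 ± 0.23, limma adjusted p = 3.18e-15).

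Aldh1a2, which makes retinoic acid, had a median of 0 TPM in mz_EKO embryos and 24.6 TPM in mz_DKO embryos, with overlapping ranges (3.77 ± 0.53, limma adjusted p = 2.16e-07). Rdh12, a retinol dehydrogenase, ranged from 0 to 3.86 TPM and from 8.19 to 104 TPM (4.10 ± 0.53). Ifitm2, another member of the family of Ifitm1 and Ifitm3, had medians of 110 and 374 TPM with no overlap (2.09 ± 0.32). Adm, the peptide adrenomedullin, had medians of 2.26 and 37.3 TPM, again with no overlap (3.74 ± 0.53).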
